A study of Homo sapiens with 12 samples.

Results

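Among 19037 transcripts with ribosome footprint counts, 53 carried footprints while almost no RNA was counted for them. Members were chosen by a mean of at least 15 footprint counts and a mean under 10 RNA counts over the 6 libraries of each assay. Transcripts whose symbols start with HOX, NKX, EVX, IRX, ONECUT, FOX, SOX, HIST, COL or ZNF, or with the prefix of the sine oculis homeobox family, were left out, which removed 13 of the 66 that met both limits. The footprint limit was met by 8457 transcripts and the RNA limit by 5955. A high footprint count beside a low RNA count is therefore what the choice used, and is given below only as a description.

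The tumours were 22Rv1 xenografts, from a human prostate cancer line injected under the skin of male NSG mice, which are immunodeficient, at 6 to 8 weeks of age. Mice entered treatment when tumours measured 70 to 100 mm3. They received zotatifin at 0.3 mg/kg in 5% dextrose, or 5% dextrose alone, into the peritoneum. Tumours were taken 6 h later. Each treatment had 3 biological replicates in each assay, 12 libraries in all. Footprint and RNA libraries of one number and treatment are read here as 1 tumour, which the labels do not state. Zotatifin inhibits eIF4A, the helicase that opens the leader of an mRNA for the scanning ribosome. NSG mice lack mature lymphocytes but keep myeloid cells, vessels and stroma, so such a tumour can hold mouse RNA, while the counts are listed for human transcripts. All 10 of the 22Rv1 and prostate markers looked for, KLK3 among them, had counts in every library of both assays.

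Footprint libraries held 2013968, 1831612 and 1592316 counts with vehicle and 1170198, 838135 and 1540867 with zotatifin. Every zotatifin library was thus shallower than every vehicle library, and zotatifin library 3 came closest, at 0.968 of the counts of vehicle library 3. RNA libraries held 5761921 to 8153674 counts. The 53 members together held 3115 to 5577 footprint counts per library and 128 to 327 RNA counts. Their RNA means ran from 0.167 to 9.67 counts with a median of 2.5, and 25 of them had a mean under 2. No member was at 0 in all 6 RNA libraries.

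A ribosome footprint is the stretch of mRNA that a ribosome shields from ribonuclease, and footprints are usually read against the amount of the same mRNA. A processed gene copy, or retrogene, arises when a spliced mRNA is copied back into the genome. It keeps most of the coding sequence of its parent, has few or no introns, and sits elsewhere in the genome. A short fragment can then match parent and copy alike. How reads that match several transcripts were placed is not given in the sources used here, so the counts of near-identical genes are uncertain.

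By their names and known roles, 17 members were copies of an expressed gene, 15 belonged to other gene families, 7 were genes of blood cells, 4 were neural transcription factors and 10 were other genes with restricted expression. The copies were PPIAL4D, PPIAL4E, PPIAL4F, UBE2L5, HNRNPCL3, HNRNPCL4, BOD1L2, SUMO4, RPS4Y2, PGK2, GSPT2, ANP32D, PTTG2, PRPS1L1, TUBA4B, LDHAL6A and H3.Y. The other families were metallothioneins (MT1A, MT1F, MT1H, MT1M), MAGEA cancer-testis antigens (MAGEA8, MAGEA9, MAGEA9B), RBMY1 (RBMY1F, RBMY1J), keratins (KRT6B, KRT80), GSTA2, UGT2B7, PRMT8 and TCEAL2. Blood genes were PTPRC, PLEK, F13A1, ARHGDIB, HBD, HBG1 and HBG2, and the transcription factors were FEZF2, INSM1, DLX6 and BHLHE22. Among the remaining genes were RIN3, STUM, LOR, NHS, C6orf223, LRCH2, GFAP, CCM2L and PVALB. These groups were formed after the names were seen.

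In one pair of members the bases around the start site are identical. The stretches below are the 60 bases before the start site of 3 MAGEA members, cancer-testis antigens that normally appear in germ cells and tumours. They are taken from RefSeq promoter windows on GRCh38.p14. Capitals in the MAGEA8 line mark bases that differ from the MAGEA9 base at the same position, without alignment.
MAGEA9: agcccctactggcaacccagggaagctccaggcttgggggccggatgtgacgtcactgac
MAGEA9B: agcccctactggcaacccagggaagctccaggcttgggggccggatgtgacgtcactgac
MAGEA8: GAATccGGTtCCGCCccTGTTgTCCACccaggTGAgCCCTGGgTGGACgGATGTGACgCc
The 300-base windows lie on the plus strand at chrX:149781680-149781979 for MAGEA9 and chrX:149880933-149881232 for MAGEA8. That of MAGEA9B lies on the minus strand at chrX:149587410-149587709. Compared position by position, MAGEA9 and MAGEA9B differed at 0 of 300 bases, and MAGEA8 differed from MAGEA9 at 206. Shared stretches that are shifted, such as GGATGTGACG, count as differences here, so the 206 does not measure how alike the windows are. Footprint counts of MAGEA9 were 32, 27 and 27 with vehicle and 17, 15 and 16 with zotatifin, and those of MAGEA9B were 29, 25 and 33 with vehicle and 15, 17 and 18 with zotatifin. The 2 copies thus took nearly the same counts in each library.

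Metallothioneins, small proteins that bind zinc and copper, are encoded side by side on chromosome 16 and are switched on by metals through metal response elements. The 150 bases before the start are shown for the member MT1H and for 2 expressed neighbours. Whether such elements bear on any footprint change was not tested. Capitals mark matches to the core TGCNCNC on either strand; no matches overlap.
MT1H: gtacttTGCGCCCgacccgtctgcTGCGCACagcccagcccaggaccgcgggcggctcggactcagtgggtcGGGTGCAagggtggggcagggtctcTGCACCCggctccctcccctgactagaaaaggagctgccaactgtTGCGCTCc
MT2A: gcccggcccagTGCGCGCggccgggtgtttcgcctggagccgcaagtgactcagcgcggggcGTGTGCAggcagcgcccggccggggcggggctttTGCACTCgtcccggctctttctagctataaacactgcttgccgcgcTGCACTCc
MT1X: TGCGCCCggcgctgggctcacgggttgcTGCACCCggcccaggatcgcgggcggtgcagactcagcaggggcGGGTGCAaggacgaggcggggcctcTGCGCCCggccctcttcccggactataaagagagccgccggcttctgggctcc
These windows lie on the plus strand at chr16:56669564-56669863 for MT1H, chr16:56608334-56608633 for MT2A and chr16:56682220-56682519 for MT1X (GRCh38.p14). MT1H held 5 matches and MT2A and MT1X held 4 each. Of 14661 promoter stretches of this length, 39.4% held at least 1 match, 0.525% at least 4 and 0.0955% at least 5.

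The members' combined share of the footprint library was higher in every zotatifin library than in any vehicle library. It was 0.277%, 0.274% and 0.265% in vehicle libraries 1 to 3 and 0.329%, 0.372% and 0.332% in zotatifin libraries 1 to 3. The groups did not overlap, with means of 0.272% ± 0.00602 and 0.344% ± 0.0239 (SD, n = 3 each), a log2 ratio of 0.34. Between the libraries of like depth, zotatifin 3 and vehicle 3, the log2 ratio was 0.32, most of it from the 3 PPIAL4 genes. For these 3, the like-depth ratio was 0.59 and that between zotatifin 2 and 3, of unlike depth, was -0.02. For the other 50 members the like-depth ratio was 0.11 and that between zotatifin 2 and 3 was 0.31. The 7 blood genes, at a like-depth ratio of -1.81, are among these 50. Each such ratio compares single libraries, so that depth, treatment and tumour cannot be told apart in it. Without the 5 members with most footprints the like-depth ratio was 0.09 and that between zotatifin 2 and 3 was 0.23. Within the vehicle libraries, the share was lowest in the shallowest library. Within the zotatifin libraries, the shallowest had the highest share, but libraries 1 and 3 hardly differed although their depths did. Exact 95% binomial intervals, which cover counting error only, ran from 0.319% to 0.340% for zotatifin 1 and from 0.323% to 0.341% for zotatifin 3. The members' share of the RNA library was 0.00293%, 0.00296% and 0.00459% with vehicle and 0.00231%, 0.00293% and 0.00171% with zotatifin, with overlap.

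**Figure D1:**
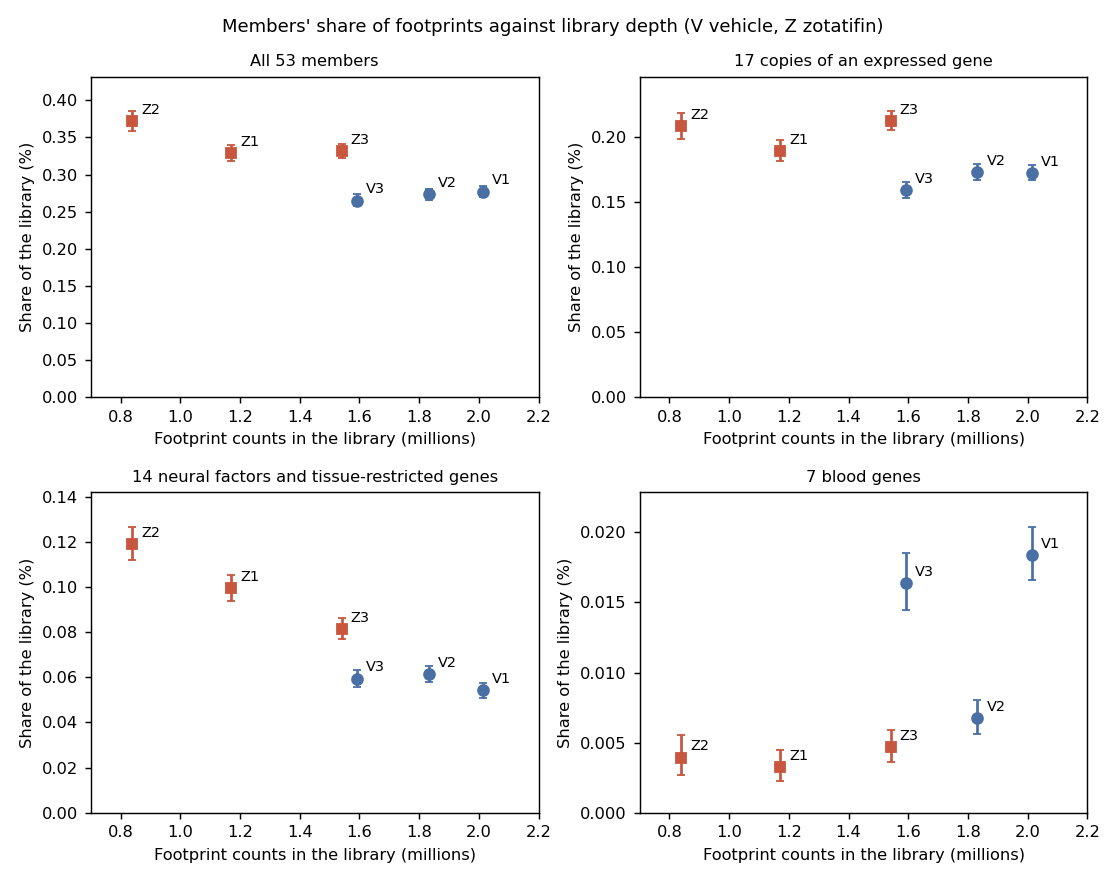
Share of the footprint library (%) against the footprint counts in the library (axis in units of 1e6 counts) for all 53 members, the 17 copies, the 14 neural transcription factors and other tissue-restricted genes, and the 7 blood genes. Each point is 1 library, circles for vehicle (V1 to V3) and squares for zotatifin (Z1 to Z3), with exact 95% binomial intervals; the 14 neural and tissue-restricted genes rise towards shallow libraries among the zotatifin points, from 0.0814% to 0.119%, whereas the copies do not.

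The gene groups behaved differently. The copies held 0.172%, 0.173% and 0.159% of vehicle footprints and 0.189%, 0.208% and 0.212% of zotatifin footprints, so that zotatifin libraries 2 and 3 were nearly equal at 0.544 times the depth (log2 ratio -0.03). By contrast, the 14 neural factors and other tissue-restricted genes held 0.0542%, 0.0615% and 0.0594% with vehicle and 0.0996%, 0.119% and 0.0814% with zotatifin. Their share fell with depth among the 3 zotatifin libraries, at a log2 ratio of 0.55 between zotatifin 2 and 3, and the like-depth pair still differed by 0.46. Members of other families stood at 0.0302% to 0.0323% with vehicle and 0.0337% to 0.0407% with zotatifin. The 13 transcripts of the left-out families that met both limits, HOX, forkhead, SOX and histone genes among them, went from 0.221% to 0.267% with vehicle and from 0.327% to 0.464% with zotatifin, and their share fell at every step up in depth over all 6 libraries.

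Taken gene by gene, shares that fell with depth within a treatment were about as frequent among members as among all transcripts. Among 52 members tested, the share fell with the library total across the 3 zotatifin libraries in 10 (background 17.2% of 9544 transcripts), across the 3 vehicle libraries in 7 (14.2%) and across both in 3 (2.65%). It rose with the total in 3 across zotatifin (20.5%), in 8 across vehicle (19.5%) and in 0 across both (4.43%). Raw counts gave another view. For most transcripts counts scale with depth, so that the coefficient of variation over the 6 libraries is larger for counts than for shares, with medians of 33.7% and 18.0% over all tested transcripts. Over the members both medians were alike, 32.3% for counts and 31.1% for shares. Counts varied less than shares in 18 of 53 members, or 34.0%, against 10% of all tested transcripts, and these included 3 of the 4 neural factors, 6 of the 10 tissue-restricted genes, 7 of the 15 members of other families and 2 of the 17 copies.

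In the test of single genes, 12 of the 52 members tested rose with zotatifin and 4 fell, beside a background of 7.14% of 9544 transcripts in either direction, 3.22% risen and 3.92% fallen. The test was edgeR's quasi-likelihood F test on footprint counts with Benjamini-Hochberg adjustment over all transcripts. The footprint limit was met by the mean of the vehicle libraries alone in 12 members, among them all 7 blood genes, and by that of the zotatifin libraries alone in 1, NHS. A direction of change is in part fixed by the choice in such genes, which include all 4 that fell and 1 of the 12 that rose. Levels in CPM, footprint counts relative to the TMM-scaled library size, did not overlap between the treatments in 16 members that were higher with zotatifin (12.9%) and 7 that were lower (13.5%). The median log2 change was 0.13 over the members and 0 over all transcripts tested. By group it was 0.02 for copies, 0.17 for other families, 0.88 for the neural factors, 0.41 for the other tissue-restricted genes and -1.49 for the blood genes. Treatment and depth could be separated only in part, since the depth ranges of the treatments did not meet. With log2 library total as a second term, which left 3 residual degrees of freedom, 3 of the 16 calls remained, those of STUM, PTPRC and F13A1 (background 0.398% in either direction, 0.0943% risen and 0.304% fallen), and the group medians became 0.03, 0.20, 0.55, 0.22 and -1.19 in the same order.

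**Figure D2:**
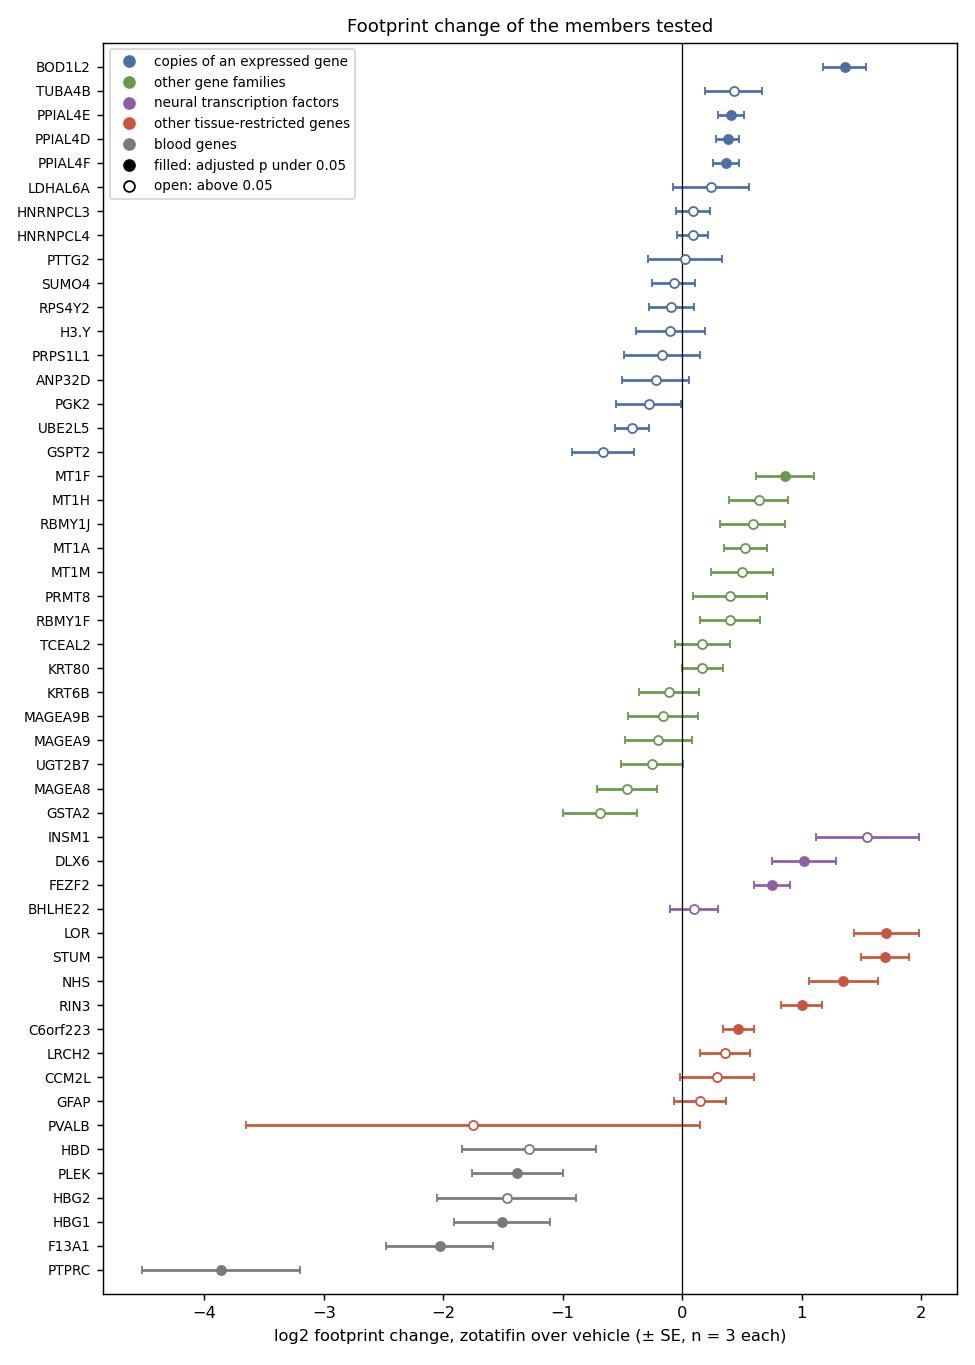
Log2 footprint change with zotatifin over vehicle for the members tested, with 1 uncalled member not shown, ± SE (n = 3 libraries each), ordered within the 5 groups by size. Filled points passed an adjusted p of 0.05; every blood gene lies below 0, the 4 neural factors lie above 0, and most copies lie near 0.

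Copies of expressed genes took a far larger part of their relative's footprints than of its RNA. The choice of members for low RNA favours this order, so it is given as a description. PPIAL4D, PPIAL4E and PPIAL4F are copies of PPIA, which encodes cyclophilin A, an abundant enzyme that turns prolyl bonds. They lie on chromosome 1, at 145241415 to 145242174, 144372875 to 144373634 and 144592893 to 144593652, and together made up 42.8% of the members' footprints. PPIAL4E had 787, 731 and 554 footprint counts with vehicle and 511, 445 and 824 with zotatifin, against 8, 9 and 13 RNA counts with vehicle and 10, 7 and 3 with zotatifin. These footprint counts equalled 10.2%, 9.99% and 9.4% of those of PPIA in the vehicle libraries and 10.6%, 11.1% and 11.8% in the zotatifin libraries, whereas its RNA equalled 0.0687% of PPIA RNA. All 3 PPIAL4 members kept within 9.2% to 11.8% of PPIA in every library.

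Each of the 3 rose, as did the other 3 PPIAL4 genes in the table, which have more RNA. Counts of the 3 members were nearly equal in each library, and whether they hold the same reads is not known. They may therefore not be 3 separate rises. PPIAL4E levels were 382 ± 27.3 CPM with vehicle and 507 ± 55.7 with zotatifin (SD, n = 3 each), with no overlap (log2 change 0.41 ± 0.11 SE, adjusted p = 0.0172). PPIAL4D changed by 0.38 ± 0.10 (adjusted p = 0.0233) and PPIAL4F by 0.37 ± 0.11 (adjusted p = 0.0292). PPIA itself changed by 0.23 ± 0.10 and did not pass (adjusted p = 0.19), and whether it differed from its copies was not tested. The PPIAL4E call was lost on leaving out vehicle library 1 (adjusted p = 0.0843) or 3 (0.0833), or zotatifin library 3 (0.0694). For PPIAL4F the same 3 libraries gave 0.100, 0.142 and 0.116, and for PPIAL4D 0.108, 0.0891 and 0.0771, beside 0.053 without zotatifin library 2. With the depth term the adjusted p-values were 0.285, 0.372 and 0.253 for PPIAL4E, PPIAL4D and PPIAL4F at changes of 0.42, 0.36 and 0.44.

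UBE2L5 resembles UBE2L3, a ubiquitin-conjugating enzyme. It had 280, 210 and 178 footprints with vehicle and 125, 64 and 134 with zotatifin, 57.1% to 68.3% of the UBE2L3 counts in each library, beside 1 to 4 RNA counts. Every zotatifin library was lower than every vehicle library in CPM. The log2 changes were -0.42 ± 0.14 for UBE2L5 (adjusted p = 0.0586) and -0.38 ± 0.12 for UBE2L3 (adjusted p = 0.041), so that UBE2L3 passed and UBE2L5 did not, with no test of their difference. HNRNPCL3 and HNRNPCL4, copies of the RNA-binding protein gene HNRNPC, sit on chromosome 1 and took almost identical counts. HNRNPCL3 had 154, 161 and 136 with vehicle and 113, 70 and 128 with zotatifin. HNRNPCL4 had 156, 166 and 133 with vehicle and 108, 73 and 134 with zotatifin. Each held 5.08% to 7.40% of HNRNPC footprints beside 0.0184% and 0.0230% of its RNA, and each changed by 0.09 (SE 0.14 and 0.13; adjusted p = 0.765 and 0.742).

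Of the 17 copies, BOD1L2 had the largest log2 change. It is a relative of BOD1, a chromosome alignment factor, and lies on chromosome 18 at 57147087 to 57150410. Its footprint counts were 62, 58 and 33 with vehicle and 84, 72 and 95 with zotatifin, and a single RNA count was found over the 6 libraries. Even the raw counts did not overlap, although the zotatifin libraries were shallower. In CPM it went from 27.9 ± 6.04 to 74.2 ± 13.5 (SD, n = 3 each), a log2 rise of 1.36 ± 0.18 (adjusted p = 2.48e-05), and it passed without any 1 library. With the depth term the change was 1.11 (adjusted p = 0.0555). BOD1 changed by 0.42 ± 0.27 (adjusted p = 0.39), and BOD1L2 held 165% to 600% of its footprints while its RNA was 0.0462% of that of BOD1.

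The other 10 copies were not called. They were relatives of SUMO2, of the ribosomal protein gene RPS4X, of the glycolytic genes PGK1 and LDHA, of the translation termination factor gene GSPT1, and of ANP32A, PTTG1 (securin), PRPS1, TUBA4A and H3F3A. Their log2 changes ran from -0.66 ± 0.26 for GSPT2 (adjusted p = 0.119) to 0.43 ± 0.24 for TUBA4B (adjusted p = 0.311). GSPT2 had 38, 42 and 38 counts with vehicle and 17, 9 and 23 with zotatifin, lower in every zotatifin library in CPM. Over the 17 copies, the footprint percent of the relative exceeded the RNA percent in 17, with medians of 7.48% and 0.0621%. This too is largely fixed by the choice of members. The change of the copy lay within 0.25 log2 units of that of its relative in 11 of 17. Between the lowest and highest library the footprint percent varied by a factor of 1.18 to 3.64, with a median of 1.78.

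**Figure D3:**
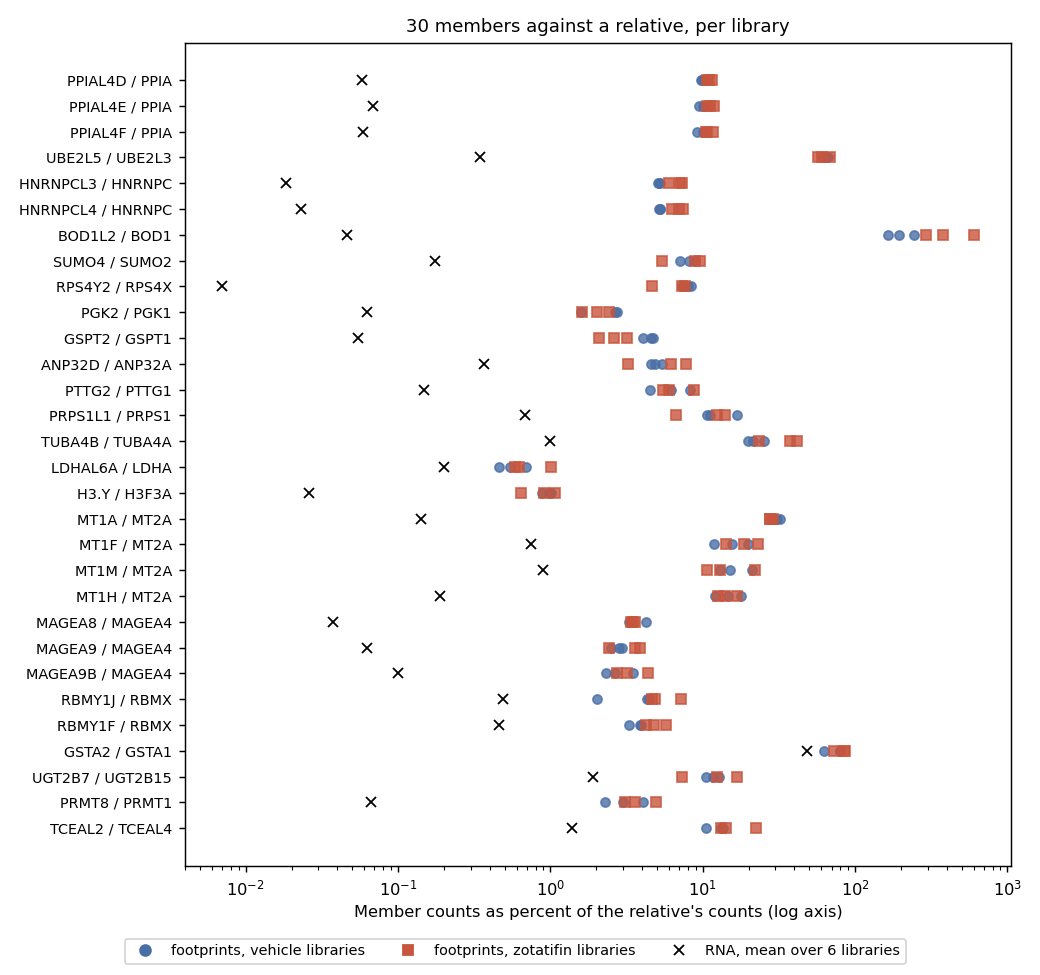
Counts of 30 members as a percent of the counts of a named relative (log axis), with footprints in the 6 libraries as circles (vehicle) and squares (zotatifin) and RNA as a cross (mean over 6 libraries). Footprint points of a pair cluster to the right of the RNA cross in all 30 pairs, an order that the choice of members for low RNA favours. The PPIAL4 copies cluster between 9.2% and 11.8%, and BOD1L2 spreads from 165% to 600%.

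Short genes were frequent among the copies. The genomic span in RefSeq was under 2000 bp in 10 of 17 copies, in 17 of 53 members (32.1%) and in 4.95% of 18358 transcripts with a RefSeq match. The median span was 1626 bp for the copies and 13863 bp for their relatives. RefSeq promoter windows, from 250 bases before to 50 after the start, matched 32 of the 53 members. They held a median of 7.5 CpG dinucleotides, against 22 over 14661 windows, and a median G+C share of 52.3% against 63%. Chromosome 1 held 8 members, X held 7 and Y held 3.

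The 4 metallothionein members are relatives of MT2A, which had most of the family's RNA. MT1F had 46, 35 and 21 footprints with vehicle and 44, 36 and 37 with zotatifin, which is higher in CPM in every zotatifin library. Its level went from 18.5 ± 4.71 to 35.4 ± 10.4 CPM (SD, n = 3 each), a log2 rise of 0.86 ± 0.24 (adjusted p = 0.0278). This call was lost in DESeq2 (adjusted p = 0.0849), with the depth term (0.683, at a change of 0.46), and on leaving out vehicle library 1 (0.0594) or 3 (0.109), or zotatifin library 1 (0.112) or 2 (0.122). MT1A had 71, 72 and 53 counts with vehicle and 53, 56 and 72 with zotatifin, 27.6% to 31.9% of those of MT2A, and did not overlap in CPM (0.53 ± 0.18, adjusted p = 0.0695). MT1H changed by 0.64 ± 0.25 (adjusted p = 0.113) and MT1M by 0.50 ± 0.26 (adjusted p = 0.252). In the whole family 5 of 8 tested genes rose in footprints (background 3.22% risen), MT1F and the 4 expressed genes MT2A, MT1E, MT1G and MT1X. The RNA of these 4 changed by 0.27, 0.49, 1.08 and 0.71 in the same order. None of these RNA changes passed in edgeR (adjusted p = 0.34, 0.38, 0.063 and 0.18).

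None of the 3 MAGEA members was called. MAGEA8 had 46, 36 and 31 counts with vehicle and 16, 14 and 23 with zotatifin, lower in CPM in every zotatifin library, and its change did not pass (-0.46 ± 0.25, adjusted p = 0.285). MAGEA9 changed by -0.20 ± 0.28 and MAGEA9B by -0.16 ± 0.29 (adjusted p = 0.729 and 0.791). Their abundant relative MAGEA4 fell, with a log2 change of -0.41 ± 0.10 (adjusted p = 0.014). In all, 2 of 11 tested MAGEA genes fell (background 3.92% fallen), the other being MAGEA1. MAGEA members held 2.33% to 4.36% of MAGEA4 footprints.

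No other member of a family was called. RBMY1J and RBMY1F, Y-linked genes of an RNA-binding family of male germ cells, had 14 to 34 and 19 to 32 counts, with changes of 0.59 ± 0.27 (adjusted p = 0.193) and 0.40 ± 0.25 (adjusted p = 0.357). KRT80 had 33 to 98 counts and KRT6B 10 to 41; both encode epithelial filament proteins, and their changes were 0.17 ± 0.17 and -0.11 ± 0.25. GSTA2, a glutathione transferase, had 36, 28 and 25 counts with vehicle and 6, 8 and 22 with zotatifin. It was lower in CPM in every zotatifin library without passing (-0.69 ± 0.31, adjusted p = 0.18), and its relative GSTA1 changed by -0.84 ± 0.29 (adjusted p = 0.073). GSTA2 met the footprint limit through vehicle alone, with means of 29.7 with vehicle and 12 with zotatifin. Its direction is thus in part fixed by the choice of members. GSTA2 was the family member nearest to the RNA limit, with an RNA mean of 9.67 counts, 48.3% of that of GSTA1. UGT2B7, which attaches glucuronic acid to steroids and drugs, PRMT8, an arginine methyltransferase of brain, and TCEAL2 changed by -0.25 ± 0.26, 0.40 ± 0.31 and 0.17 ± 0.23, with adjusted p of 0.613, 0.479 and 0.718.

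The 4 neural transcription factors have their best known roles in the developing nervous system and in neuroendocrine cells. FEZF2, a zinc finger factor that directs subcortical projection neurons, had 318, 240 and 268 footprints with vehicle and 332, 251 and 288 with zotatifin. It had 0, 0 and 5 RNA counts with vehicle and 0, 0 and 2 with zotatifin. The raw footprint counts of the treatments overlapped, while counts relative to the library total did not. Its level was 153 ± 18.7 CPM with vehicle and 261 ± 65.2 with zotatifin (SD, n = 3 each), a log2 rise of 0.75 ± 0.15 (adjusted p = 0.00475). It passed without any 1 library, and with the depth term the change was 0.25 (adjusted p = 0.653). Between the like-depth libraries zotatifin 3 and vehicle 3 the log2 ratio of shares was 0.15 (exact 95% interval -0.09 to 0.40, counting error only), and between zotatifin 2 and 3, of one treatment but other depth, it was 0.68 (0.43 to 0.93).

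INSM1, a zinc finger factor of neuroendocrine cells, had 79, 81 and 58 counts with vehicle and 70, 152 and 184 with zotatifin. Zotatifin libraries 2 and 3 were far above the rest, and library 1 was only slightly above vehicle in CPM. The change of 1.55 ± 0.43 did not pass in edgeR (adjusted p = 0.117) but passed in DESeq2 (adjusted p = 0.0148), and in edgeR without zotatifin library 1 (7.74e-08) or zotatifin library 2 (0.0169). INSM1 differed by a log2 ratio of 1.71 (1.28 to 2.16) between the like-depth libraries. DLX6, a homeobox factor of forebrain interneurons, had 17, 36 and 21 counts with vehicle and 30, 25 and 43 with zotatifin. It rose by 1.02 ± 0.27 (adjusted p = 0.0182), but not in DESeq2 (0.0729), with the depth term (0.85, adjusted p = 0.432), without vehicle library 1 (0.158) or without zotatifin library 2 (0.0509). BHLHE22, a basic helix-loop-helix factor of cortex and retina, had between 41 and 70 footprint counts in vehicle libraries and between 30 and 54 in zotatifin libraries, and changed by 0.10 ± 0.20 (adjusted p = 0.808).

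Among the other tissue-restricted genes, 5 of 10 rose (background 3.22% risen). STUM, the human counterpart of a fly mechanosensory protein, had 52, 33 and 54 counts with vehicle and 113, 79 and 97 with zotatifin. Raw counts did not overlap. The level went from 26.1 ± 8.01 to 85.9 ± 20.1 CPM (SD, n = 3 each), a log2 rise of 1.70 ± 0.20 (adjusted p = 7.23e-06), and STUM was the 1 member whose rise passed with the depth term (1.21, adjusted p = 0.0353). LOR, which encodes loricrin of the cornified skin envelope, had 14, 23 and 25 counts with vehicle and 52, 37 and 42 with zotatifin, again with no overlap in raw counts. It rose by 1.71 ± 0.27 (adjusted p = 0.00024), and with the depth term changed by 1.07 (adjusted p = 0.225). STUM and LOR both passed without any 1 library.

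RIN3, an exchange factor for the endosomal GTPase RAB5, had 136, 119 and 139 counts with vehicle and 202, 139 and 160 with zotatifin. It rose by 1.00 ± 0.17 (adjusted p = 0.00138), held without any 1 library, and lost the call with the depth term (0.45, adjusted p = 0.428). Its like-depth ratio was 0.25 (-0.09 to 0.59) and that of zotatifin 2 over 3 was 0.68 (0.34 to 1.01), the same order as in FEZF2. NHS, the gene of the Nance-Horan cataract syndrome, had 13, 15 and 15 counts with vehicle and 22, 21 and 28 with zotatifin. Its vehicle mean of 14.3 is under the footprint limit, so that its rise is in part fixed by the choice of members. It rose by 1.35 ± 0.29 (adjusted p = 0.00432) and was lost without vehicle library 1 (0.0594) and with the depth term (0.382, at a change of 0.93). C6orf223, which RefSeq lists as the long noncoding RNA LINC03040, had 246, 251 and 203 counts with vehicle and 178, 191 and 247 with zotatifin. It rose by 0.47 ± 0.13 (adjusted p = 0.0302), and this was lost in DESeq2 (0.0614), with the depth term (0.904, at a change of 0.09), and on leaving out vehicle library 1 (0.173) or 3 (0.0668), or zotatifin library 2 (0.183).

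**Figure D4:**
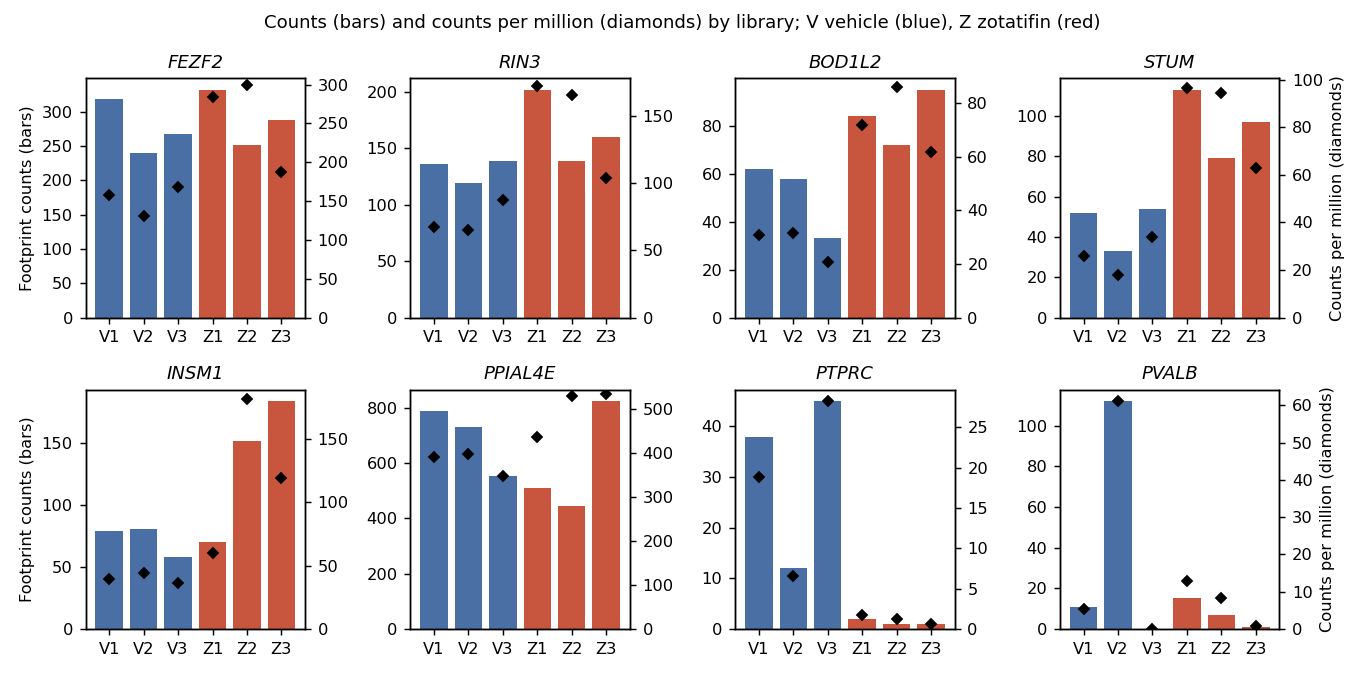
Footprint counts (bars, left axis) and CPM of the library total (diamonds, right axis) in each library for 8 members, vehicle in blue (V1 to V3) and zotatifin in red (Z1 to Z3). Bars of FEZF2 overlap between the treatments while its diamonds do not; both bars and diamonds of BOD1L2 and STUM are higher in every zotatifin library, and PVALB has 112 of its counts in vehicle library 2.

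The other 5 tissue-restricted genes were not called; 4 of them follow. GFAP, the filament protein of astrocytes, had 20 to 48 counts and changed by 0.15 ± 0.22. LRCH2 had 31 to 50 counts (0.36 ± 0.21) and CCM2L, a gene of endothelium, 10 to 27 (0.29 ± 0.31). PVALB, the calcium buffer of fast muscle fibres, had 11, 112 and 0 counts with vehicle and 15, 7 and 1 with zotatifin, so that vehicle library 2 held most of them. That library also held 63 footprints of CKM, 143 of MYH4 and 111 of MYH1, all genes of skeletal muscle, against 2 to 11, 0 to 15 and 1 to 26 in the other libraries. ACTA1 and MB, also muscle genes, were not confined to that library. ACTA1 had 401, 515 and 348 footprints with vehicle and 230, 176 and 270 with zotatifin. MB had 103, 95 and 77 with vehicle and 50, 35 and 79 with zotatifin. The part of muscle in the PVALB counts was not tested.

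All 7 blood genes had a mean under 15 footprints with zotatifin and met the footprint limit through their vehicle libraries alone. Their lower counts with zotatifin are thus in part fixed by the choice of members, and the values of the group and of its 4 called genes are given as a description. Their share of the footprints was 0.0184%, 0.00677% and 0.0164% with vehicle and 0.00325%, 0.00394% and 0.00467% with zotatifin, a log2 ratio of -1.81. Vehicle library 2 was low among the vehicle libraries but above all zotatifin libraries. The like-depth pair gave -1.81 and zotatifin 2 over 3 gave -0.25, so the share did not run with depth within zotatifin. Fewer cells of a type and less RNA per cell cannot be told apart in bulk tumours.

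PTPRC, which encodes CD45 of white blood cells, had 38, 12 and 45 footprints with vehicle and 2, 1 and 1 with zotatifin. Its log2 change was -3.86 ± 0.66 (adjusted p = 0.00158), passed without any 1 library and passed with the depth term (-5.11, adjusted p = 0.0288). F13A1, the factor XIII subunit of platelets and macrophages, had 21, 33 and 47 counts with vehicle and 8, 5 and 3 with zotatifin. It fell by 2.03 ± 0.45 (adjusted p = 0.0071), and fell by 3.79 with the depth term (adjusted p = 0.00267). The F13A1 call was lost without zotatifin library 2 (0.0584) or 3 (0.0538). PLEK, pleckstrin of platelets and leukocytes, had 40, 14 and 35 counts with vehicle and 9, 5 and 8 with zotatifin, with slight overlap in CPM. It fell by 1.38 ± 0.38 (adjusted p = 0.0242), and this was lost with the depth term (0.262), without vehicle library 1 (0.158) or 3 (0.102), and without zotatifin library 2 (0.0679) or 3 (0.108). ARHGDIB, a gene of leukocytes, had 40, 7 and 40 counts with vehicle and 2, 2 and 4 with zotatifin and was the 1 member that did not pass the low-count filter.

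The 3 hemoglobin members were high in vehicle library 1. HBG1, a fetal beta-like globin, had 70, 21 and 29 counts with vehicle and 5, 6 and 16 with zotatifin. It fell by 1.51 ± 0.40 (adjusted p = 0.024), which was lost with the depth term (-0.70, adjusted p = 0.70), without vehicle library 1 (0.204) and without zotatifin library 1 (0.129) or 2 (0.16). HBG2 had 73, 17 and 27 counts with vehicle and 4, 6 and 17 with zotatifin (-1.47 ± 0.58, adjusted p = 0.171). HBD had 89, 20 and 38 with vehicle and 8, 8 and 23 with zotatifin (-1.28 ± 0.56, adjusted p = 0.24). The adult beta globin gene HBB, no member because of its RNA, had 240, 50 and 105 footprints with vehicle and 25, 13 and 48 with zotatifin, without passing (-1.57 ± 0.73, adjusted p = 0.32). HBE1, also no member, had 77, 25 and 34 footprints with vehicle and 6, 7 and 16 with zotatifin, and fell (-1.59 ± 0.36, adjusted p = 0.0088). The alpha globin genes did not share this direction. HBA1 had 137, 64 and 76 with vehicle and 62, 57 and 75 with zotatifin (log2 change 0.14 ± 0.20, adjusted p = 0.74), and HBA2 had 140, 68 and 79 with vehicle and 62, 57 and 85 with zotatifin (0.15 ± 0.18, adjusted p = 0.68).

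Summed footprints of myeloid and fibroblast markers were lower in every zotatifin library than in any vehicle library. The 7 myeloid markers, the member PTPRC among them, summed to 201, 65.5 and 322 footprint CPM with vehicle and 39.9, 56.4 and 30.4 with zotatifin. Of the 7, 4 had counts in every library and CD14 was at 0 in all. Most of the sum was LYZ, with 311, 85 and 348 footprint counts with vehicle and 37, 39 and 35 with zotatifin. CSF1R had 17, 13 and 16 with vehicle and 4, 3 and 4 with zotatifin. CD68 had 6, 1 and 3 with vehicle and 2, 1 and 3 with zotatifin, without such a fall. The RNA sums of the 7 markers were 29.5, 15.9 and 50.5 with vehicle and 14.3, 20.6 and 10.6 with zotatifin. The 10 fibroblast markers summed to 692, 461 and 794 footprint CPM with vehicle and 257, 239 and 140 with zotatifin. Their RNA sums were 305, 216 and 362 with vehicle and 132, 110 and 69.2 with zotatifin, also without overlap. Red cell markers summed to 326, 127 and 206 footprint CPM with vehicle and 139, 172 and 155 with zotatifin, and these sums overlapped. The part of these cells in the falls of the blood genes was not tested.

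Single libraries were also compared by gene and by group. Over all transcripts the median log2 ratio of shares was 0.03 for zotatifin 3 over vehicle 3 and -0.02 for zotatifin 2 over zotatifin 3. Over the 4 neural factors it was 0.76 and 0.35, over the other tissue-restricted genes 0.25 (9 genes) and 0.53 (10 genes), and over the copies 0.11 and -0.01. PPIAL4E had 0.62 (0.46 to 0.78) in the like-depth pair and -0.01 (-0.18 to 0.16) within zotatifin. BOD1L2 had 1.57 (0.99 to 2.19) and 0.48 (0.02 to 0.94), and STUM had 0.89 (0.40 to 1.40) and 0.58 (0.14 to 1.03). These ratios compare libraries, not conditions.

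**Figure D5:**
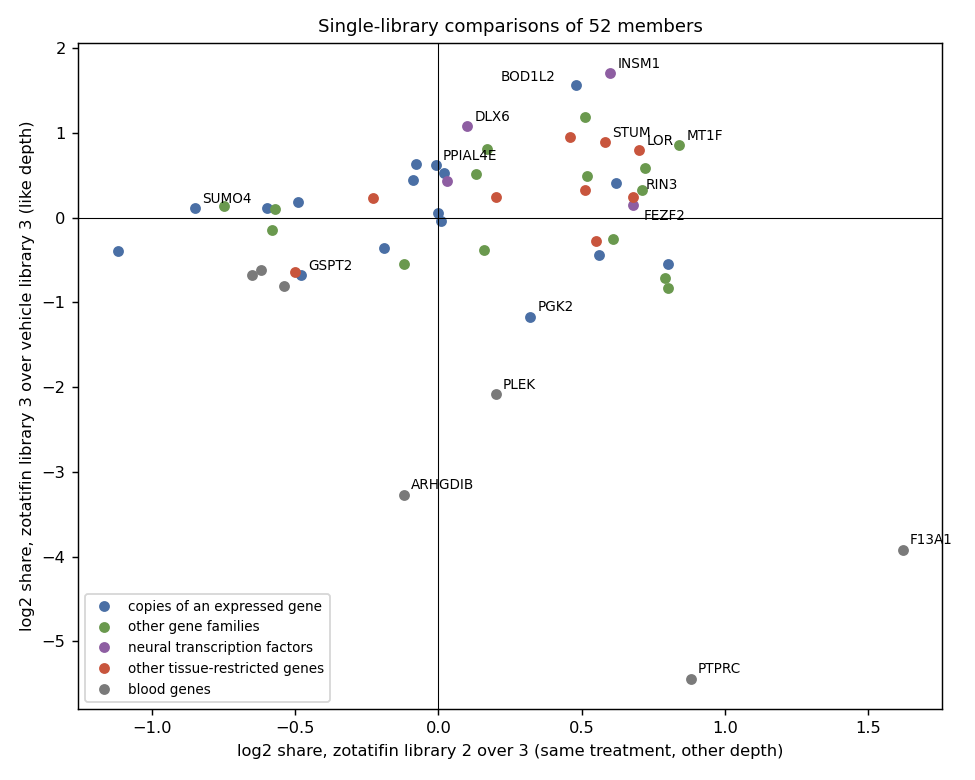
Log2 ratio of footprint shares between zotatifin library 3 and vehicle library 3, which have like depth (vertical), against the ratio between zotatifin libraries 2 and 3, which have the same treatment but other depth (horizontal), for 52 members. PPIAL4E lies high on the vertical axis near 0 on the horizontal, FEZF2 and RIN3 lie near 0.68 on the horizontal with small vertical values, and PTPRC, F13A1, ARHGDIB and PLEK lie low.

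In RNA, 4 members passed the filter, KRT80, NHS, GSTA2 and PLEK, and 0 were called by edgeR (background 1.72% of 13118 transcripts in either direction, 0.808% risen and 0.907% fallen). At an unadjusted p under 0.05 the count was also 0 (background 18.3%), and DESeq2 called 0. With 4 members tested, a count of 0 tells little. The RNA log2 changes of the 4 were 0.76 ± 0.57, -1.06 ± 0.61, -0.91 ± 0.67 and -0.86 ± 0.59. KRT80 met the RNA limit through the vehicle libraries alone, and NHS, GSTA2 and PLEK through the zotatifin libraries alone. These directions are thus in part fixed by the choice of members. Translational efficiency, footprints relative to RNA, was tested by an assay-by-treatment term in the same 4 members. NHS rose in efficiency by 2.44 ± 0.62 on the log2 scale (adjusted p = 0.0368), beside a background of 1.69% in either direction, 0.476% risen and 1.22% fallen. The NHS call was lost on leaving out the tumour of vehicle library 1 (adjusted p = 0.19), zotatifin library 2 (0.159) or zotatifin library 3 (0.111), and without vehicle library 3 NHS did not pass the filter. Its RNA counts were 11, 5 and 20 with vehicle and 12, 2 and 6 with zotatifin. NHS met both limits through the zotatifin libraries alone, with RNA means of 12 with vehicle and 6.67 with zotatifin, so that the choice of members favours this rise. The other 49 members have too little RNA for this ratio. When only the footprints had to pass the filter, RIN3 (2.82 ± 0.57, adjusted p = 0.00813), NHS (2.44 ± 0.64, 0.0443) and DLX6 (5.40 ± 1.36, 0.0373) passed; RIN3 also passed the filter of both assays, and the test, without vehicle library 1 or zotatifin library 2 or 3 (adjusted p = 0.0266, 0.0158 and 0.00858). RIN3 met the RNA limit through zotatifin alone, with RNA means of 12.3 with vehicle and 4 with zotatifin, so its efficiency draws on values that the choice used. DLX6 had RNA counts in 2 vehicle libraries alone.

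The authors' deposited table of RNA changes lists all 53 members with a fold change and 0 with an adjusted p. In the authors' deposited table of footprint changes, 1 member is listed, RBMY1J, with an efficiency estimate of 0.31 on the natural log scale (0.448 in log2) and an FDR of 0.55.

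Lists of gene classes show where the members sit among genes of like kind. Over all transcripts, 53 of 19037 were members, and of 9544 tested 3.22% rose and 3.92% fell. Of 229 developmental transcription factors outside the left-out families, 30 passed the footprint filter, 8 rose and 0 fell, and 4 were members. Cancer-testis and germ cell genes numbered 395, a name pattern that also takes histone symbols; 139 were tested, 39 rose, 3 fell and 4 were members. Among 186 keratins and epidermal structural proteins 10 were tested, 2 rose, 0 fell and 3 were members. Of 48 host markers of blood, stroma and endothelium 22 were tested, 0 rose, 9 fell and 4 were members. The pattern for copies named as L members took 703 genes, of which 336 were tested, 12 rose, 13 fell and 4 were members. Lists of receptors, channels, cadherins, immune genes, growth factors and other zinc finger factors held 0 members. At the share over all transcripts, few or none would fall in lists of their size.

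At the limits of the choice, ARHGDIB (a mean of 15.8 footprint counts), PTPRC (16.5) and PRPS1L1 (18) lay just inside, and POSTN (14.8), CASQ2 (14.7) and TUBA3C (14.5) just outside. On the RNA side GSTA2 (9.67), TCEAL2 (9.5) and PTPRC (9.5) lay just inside, and RBMY1D (10.2), UGT1A5 (10.3) and RTL8B (10.8) just outside.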

How the data were processed

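The authors deposited raw counts per transcript, 1 table of 19038 transcripts for RNA and 1 of 19037 for footprints. The authors' deposited RNA comparison holds a mean signal, log2 fold changes, a Wald score and p-values. The authors' deposited footprint comparison holds an estimate of efficiency on the natural log scale, read from the values, and an FDR. Per the submitters' processing notes, cutadapt 2.3, UMI-tools, Bowtie2 2.3.5 and DESeq2 were used on hg38. Footprints of 24 to 34 nt were taken, per the labels' protocols. The treatment field contradicts the titles of 6 of the 12 samples; titles and column names were used, and 0 count columns were left without a sample.

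Tests used edgeR 4.0.16 in R 4.3.3 (filterByExpr with minimum count 10 and total 15, TMM, robust quasi-likelihood F test), fitted on all transcripts with Benjamini-Hochberg adjustment and a call under 0.05. SE is the size of the log2 change over the square root of F. Efficiency was the assay by treatment interaction over 12 libraries. Alternatives were DESeq2 1.42.0 and its size factors, no filter, a replicate block, a depth term, each library left out, and other limits of the choice. On simulated footprint counts 67% of changes of 1 log2 unit and 97% of 2 were recovered (9528 transcripts), and on simulated RNA 75% and 100% (13120). The simulation gave every transcript the same dispersion and changed only transcripts with a mean of at least 15 counts. It therefore does not give the recovery for members that spread more between libraries, such as INSM1 and PTPRC. Nothing in the labels says more than that replicates are biological, so p-values measure the spread between these replicates. Footprint and RNA libraries of one number and treatment deviated together (correlation 0.245 to 0.362 with vehicle, 0.218 to 0.442 with zotatifin).

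Members, groups, relatives and lists were chosen with earlier results of these data known. Named genes are the members with most footprints, those called, those nearest the limits and those of each list; the other members are named too, except 1 that is not reported here. Planned features of member proteins were not analysed here.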

Additional observations from a re-analysis of the deposited data

How the results depend on the processing

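All 16 footprint calls kept their direction under every alternative run. The 12 rises became 1 with the depth term and 5 to 12 with 1 library left out (5 without vehicle library 1, 7 without vehicle library 3). The 4 falls became 0 in DESeq2, which gave NA for all 4 and for 19 members in all, 8 without the low-count filter, 7 with the replicate block, 2 with the depth term and 1 to 7 with 1 library left out (7 without vehicle library 2, 1 without zotatifin library 2). The block changed no call to a miss and brought the rises to 14; it is no pairing, since same-numbered vehicle and zotatifin footprint libraries correlated at -0.0935 to 0.0496. The 0 RNA falls became 1, PTPRC, without the filter (-2.50 ± 0.74, adjusted p = 0.0302) and 0 to 1 with 1 library left out (1 without vehicle library 2, -2.93). The 1 efficiency rise became 3 with the filter in footprints alone and 0 to 1 with 1 tumour left out, an alternative added after seeing the data (0 without vehicle library 3, and RIN3 in place of NHS without vehicle library 1 or zotatifin library 2 or 3). The log2 ratio of the members' share, 0.34, became 0.10 as a median over members, 0.23 without the 5 members with most footprints, 0.44 at a footprint minimum of 30 and 0.48 with members chosen on zotatifin columns alone. In single groups, an alternative chosen after seeing the data, it was 0.24 for other families, -1.81 for blood genes, 0.88 for neural factors and 0.70 for tissue-restricted genes; it was 0.28 to 0.37 with 1 library left out. The 53 members became 27 at a footprint minimum of 30 and 35 at an RNA mean under 5. Except where the construction of an alternative shows it (fewer samples, fewer genes), the cause was not tested. As members were chosen for low RNA, 4 of 53 could be tested there.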
